A study of Mus musculus with 6 samples.

Results

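Cholesterol synthesis, its control by SREBP2, and the uptake, esterification and efflux of sterol were followed through 31 mouse genes, listed by their place in the pathway and found by symbol in the GRCm38 annotation. All 31 were among the 46603 genes of each library, and all 31 had counts enough to be tested. The libraries came from mouse embryonic fibroblasts (MEFs) with a beta-actin knockout (KO, 3 libraries) and from wild-type MEFs (WT, 3 libraries). Both genotypes are labelled as BALB/c strain and as taken from embryos of 10.5 days, and both had spent 6 days in adipogenic medium, which was their serum-containing growth medium with insulin, dexamethasone, IBMX (a phosphodiesterase inhibitor that raises cAMP) and ascorbic acid added. No library from before induction was analysed here, so a difference present from the start cannot be told apart from one that arose in the medium. The labels give neither the number of embryos or lines behind each genotype nor whether replicates were separate cultures, so the p-values measure the spread between these libraries, which may be technical.

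Cells make cholesterol from acetyl-CoA, first by the mevalonate arm, which yields isoprenoid diphosphates, and then by enzymes that join these into squalene and turn squalene into sterol. SREBP2, the transcription factor that drives these enzymes, is carried by SCAP out of the endoplasmic reticulum when sterol is low and is held there by INSIG proteins when sterol is high. Oxysterols activate the liver X receptors (LXRs), which induce the exporters ABCA1 and ABCG1 and the ubiquitin ligase MYLIP, also called IDOL, which marks lipoprotein receptors for degradation. Adipocytes store much free cholesterol at the surface of their lipid droplets.

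Library totals ran from 26955708 to 38619711 counts. Actb, the deleted gene, had 276, 1988 and 1850 counts in KO replicates 1, 2 and 3, against 60501, 60582 and 53894 in WT replicates 1, 2 and 3. KO replicate 1 stood apart from the other KO libraries. Over 15009 tested genes the SD of its log2 difference from KO replicates 2 and 3 was 0.801 and 0.766, against 0.375 between KO replicates 2 and 3 and 0.389 to 0.427 between WT libraries. Of 9 fibroblast markers 7 (77.8%) were higher in KO, against 13.8% of all tested genes. The 9 summed to 3743 to 4172 CPM (counts per 1000000 in TMM-scaled libraries) in KO and 1236 to 1428 CPM in WT, most of it Col1a1 and Vim. Col3a1 gave a further 1193, 811 and 1059 CPM in KO but only 38.3, 16.9 and 37.9 CPM in WT. Dcn and Pdgfrb overlapped between the genotypes, with Dcn lower in KO on average (17.6 against 24.4 CPM). Thy1 was barely detected, at 13 to 20 counts in KO and 0 or 1 in WT. In WT Col1a2 had only 6 to 13 counts and Lum 2 to 20. The 7 adipocyte markers summed to 110, 9.01 and 18.1 CPM in KO replicates 1, 2 and 3 and to 5.03 to 10.2 CPM in WT, most of it Fabp4, while Lep had 0 counts in all 6 libraries and Adipoq had 1 count in KO and 0 in WT. The 7 macrophage markers summed to 3.29 to 15.8 CPM in KO and 8.10 to 20.5 CPM in WT, most of it Cd68, while Adgre1, Ptprc and Itgam had 0 or 1 count in every library. The 5 endothelial markers summed to 1.78 to 3.46 CPM in KO and 2.83 to 3.48 CPM in WT. The 5 epithelial markers summed to 30.3 to 50.6 CPM in KO, nearly all of it Krt18 and Krt19, and to 5.03 to 10.2 CPM in WT, where Epcam had 1.07 to 1.52 CPM, against 0 counts in KO. The 4 steroidogenic markers summed to 3.70 to 4.74 CPM in KO and 7.07 to 7.94 CPM in WT, nearly all of it Star, with Hsd3b1 at 0 throughout. The part of these markers in the results that follow was not tested. In bulk samples fewer cells of a type and less RNA per cell cannot be told apart.

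The efflux transporter gene Abcg1 and the ubiquitin ligase gene Mylip were the members that changed most: in KO cells Abcg1 fell by 4.80 and Mylip fell by 2.29 on the log2 scale. The sterol reductase gene Hsd17b7, the sterol carrier gene Stard4, the receptor gene Lrp1, the SREBP2 anchor gene Insig2 and the enzyme genes Sqle and Hmgcs1 rose, by 1.36 to 0.54 log2. The SREBP2 escort gene Scap and the sterol reductase gene Tm7sf2 fell. In all, 6 of 31 members (19.4%) rose and 4 (12.9%) fell, at an adjusted p below 0.05 in edgeR's quasi-likelihood test. Over all tested genes 13.8% rose and 14.5% fell, so neither share stood far from the background. With library totals as the only scaling, 4 members were higher and 5 lower, against 9% and 22.3% of all tested genes, whose median log2 fold change was then -0.19. The median log2 fold change was 0.27 for the members and 0.01 for all tested genes. Without KO replicate 1 the median was 0.03 for the members and -0.01 for all tested genes, with 8 members higher and 8 lower, against 19.9% and 22.4% of all genes tested in that fit. Without WT replicate 1 the higher members numbered 3, against 7.95% of all tested genes, and without WT replicate 2 there were 2 higher and 2 lower, against 6.51% and 8.41%. In 10 members every KO value lay above every WT value, and in 5 every KO value lay below, against 23.8% and 25.8% of all tested genes.

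**Figure D1:**
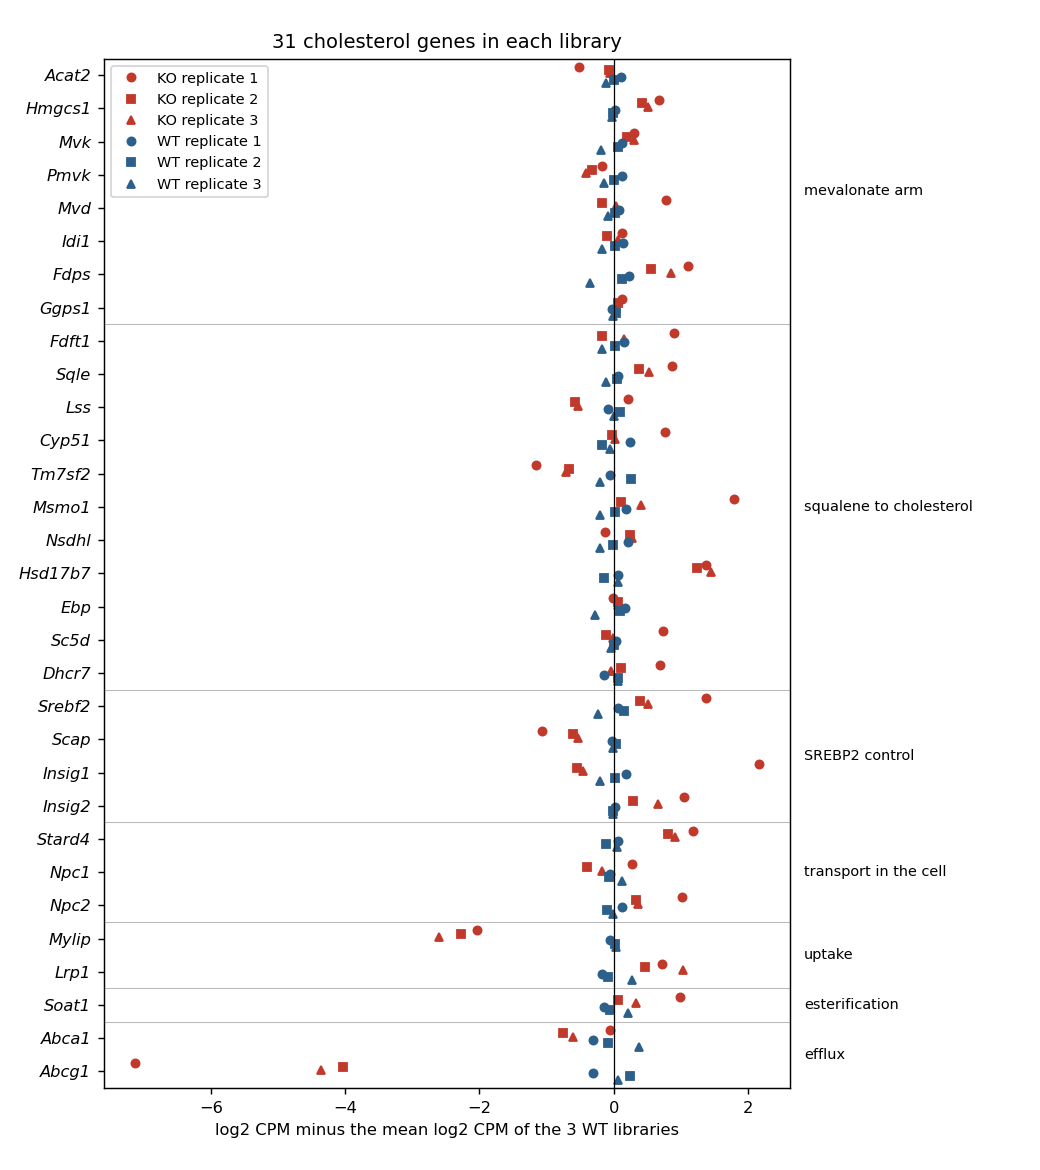
Each row is a gene, grouped by role at the right, and each point is a library: the x axis gives its log2 CPM minus the mean log2 CPM of the 3 WT libraries, with KO in red and WT in blue. Mylip and Abcg1 lie left of zero in every KO library, Hsd17b7 and Stard4 lie right of it in every KO library, and KO replicate 1 (circles) lies far to the right of the other KO libraries for Insig1 and Msmo1.

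Promoters were examined for the members with an entry in the RefSeq table of GRCm38.p6, each window running from 250 bases before to 50 bases after the gene's start. Of the 31 members 25 matched by symbol, and Fdps, Fdft1, Sqle, Stard4, Npc1 and Abcg1 were not matched. The motifs, searched on both strands, were the sterol regulatory element TCACNCCAC, a core bound by SREBPs, the NF-Y box CCAAT, bound by a cofactor of SREBPs, and the E-box CACGTG, which SREBPs can also bind. None of the 3 motifs shares bases with another in the windows printed below. The NF-Y box was in the windows of 21 of 25 members (84%), against 41.1% of 27025 genes in the table. An exact match to the sterol regulatory element TCACNCCAC was found in 1 member, Hmgcs1, which is 4% of members, against 1.44% of all genes. Sites that differ from these letters were not searched, so a window without a match may still hold such an element. The E-box was in 6 members (24%), against 8.09% of all genes. The 27025 genes were not limited to those tested here, whereas all members were tested, so these shares are over unlike sets. A match describes letters only and was not tied to the changes in expression.

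Among members with a window, Insig1 had the KO libraries that differed most from each other on the log2 scale. The 250 bases before the start are shown for Insig1 and for Hmgcs1, the member with an exact match to the sterol element. The same stretches are shown for Hsd17b7 and Mylip, the members with a window that rose and fell most. They lie at chr13:119690101-119690350 (plus strand) for Hmgcs1, chr1:169969206-169969455 (minus strand) for Hsd17b7, chr13:45389492-45389741 (plus strand) for Mylip and chr5:28071162-28071411 (plus strand) for Insig1, in GRCm38.p6. Capitals mark the motifs, and an NF-Y box on the other strand reads ATTGG. Hmgcs1 held 1 sterol element, whose first base lies 137 bases before the start, and 3 NF-Y boxes. Hsd17b7 held 3 NF-Y boxes and 1 E-box, Mylip 3 NF-Y boxes, and Insig1 1 of each.
Hmgcs1: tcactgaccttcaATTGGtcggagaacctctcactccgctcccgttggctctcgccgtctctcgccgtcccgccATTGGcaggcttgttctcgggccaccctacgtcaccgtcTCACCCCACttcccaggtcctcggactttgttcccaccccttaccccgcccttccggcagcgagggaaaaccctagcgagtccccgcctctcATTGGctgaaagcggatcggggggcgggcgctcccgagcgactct
Hsd17b7: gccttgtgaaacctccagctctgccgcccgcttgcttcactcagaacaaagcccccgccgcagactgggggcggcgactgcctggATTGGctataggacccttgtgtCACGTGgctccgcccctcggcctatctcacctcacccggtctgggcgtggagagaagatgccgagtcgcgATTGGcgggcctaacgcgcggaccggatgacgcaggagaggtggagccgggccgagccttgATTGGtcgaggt
Mylip: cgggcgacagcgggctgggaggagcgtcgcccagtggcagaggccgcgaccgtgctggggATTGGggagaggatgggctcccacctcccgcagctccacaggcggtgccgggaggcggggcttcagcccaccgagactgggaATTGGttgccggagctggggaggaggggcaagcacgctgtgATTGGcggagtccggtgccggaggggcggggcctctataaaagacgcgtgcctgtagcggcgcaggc
Insig1: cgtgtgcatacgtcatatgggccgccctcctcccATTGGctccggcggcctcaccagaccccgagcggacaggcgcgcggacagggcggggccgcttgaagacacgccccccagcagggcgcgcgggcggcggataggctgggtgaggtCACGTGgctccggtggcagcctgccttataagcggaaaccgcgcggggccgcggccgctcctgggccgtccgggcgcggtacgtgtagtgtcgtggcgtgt

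In the mevalonate arm 1 of 8 genes rose and none fell, against background shares of 13.8% and 14.5%, with a median log2 fold change of 0.17. Hmgcs1 (ENSMUSG00000093930, chromosome 13), whose cytosolic enzyme makes HMG-CoA, had 102, 85.7 and 91.7 CPM in the KO libraries and 65.1, 63.8 and 63.4 CPM in the WT libraries. The groups did not overlap, and the WT values were nearly equal. The KO over WT difference was 0.54 log2 (SE 0.07, adjusted p = 0.00901), 1.45-fold higher in KO, 0.33 when only library totals were used for scaling, and it missed the threshold without WT replicate 2 (adjusted p = 0.0537). Acat2, the thiolase that makes acetoacetyl-CoA, had 62.4, 84.3 and 85.5 CPM in KO and 95.5, 88.7 and 82.0 CPM in WT, with KO replicate 1 the lowest. The kinases that phosphorylate mevalonate in turn, Mvk and Pmvk, had opposite signs. Mvk had 45.4 to 49.1 CPM in KO and 34.8 to 43.4 CPM in WT (log2 fold change 0.26, adjusted p = 0.152), and Pmvk had 22.5 to 26.6 CPM in KO and 27.3 to 32.9 CPM in WT (-0.30, adjusted p = 0.135). Neither pair of groups overlapped, and neither gene was called. Pmvk was called lower without KO replicate 1 (-0.37 log2, adjusted p = 0.0298) and with library totals (-0.50 log2, adjusted p = 0.0202).

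Mvd, the decarboxylase that makes isopentenyl diphosphate, had 74.1 CPM in KO replicate 1, 38.2 and 43.9 CPM in KO replicates 2 and 3, and 40.3 to 45.4 CPM in WT. Only KO replicate 1 lay outside the WT range by a wide margin, and the log2 fold change was 0.27 with all libraries and -0.07 without that library, neither called. Idi1, the isomerase of isopentenyl diphosphate, had 50.6 to 59.2 CPM in KO and 48.5 to 60.1 CPM in WT, and Ggps1, which makes the geranylgeranyl diphosphate used for protein prenylation, had 23.4 to 24.9 CPM in KO and 22.2 to 23.4 CPM in WT. Their log2 fold changes were 0.02 (SE 0.11) and 0.08 (SE 0.04). Fdps, the farnesyl diphosphate synthase, was listed at only 40, 34 and 46 counts in KO and 25, 23 and 15 in WT (log2 fold change 0.89, SE 0.24, adjusted p = 0.0733). All of its KO values lay above its WT values. It shares 26.71% of its exon bases with an annotated gene on the same strand, Gm43738, which itself was listed at 0 to 2 counts. Whether this overlap or reads lost in another way lay behind the low counts of Fdps was not tested, so its counts are uncertain. Hmgcs1 shares 12.12% of its exon bases with the antisense gene Gm48342, Idi1 shares 9.22% with Gm48574 and Ggps1 shares 5.44% with Arid4b, all on the opposite strand.

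From squalene to cholesterol 2 of 11 genes rose (18.2%) and 1 fell (9.09%), near the 13.8% and 14.5% of all tested genes. The median log2 fold change was 0.29. Hsd17b7 (ENSMUSG00000026675, chromosome 1), whose enzyme reduces the ketone left when the methyl groups of the sterol ring are removed, had 56.1, 51.5 and 59.5 CPM in KO and 22.8, 19.5 and 22.8 CPM in WT. The libraries of each genotype lay close together and the groups were far apart. It differed by 1.36 log2 between genotypes (SE 0.10, adjusted p = 0.000393), 2.56-fold higher in KO, and ran from 1.15 to 1.41 over 14 alternatives, all of them called. Sqle (ENSMUSG00000022351, chromosome 15), squalene epoxidase, had 164, 117 and 129 CPM in KO and 94.6, 93.0 and 82.5 CPM in WT. The groups did not overlap, with KO replicate 1 the highest. On the log2 scale KO minus WT was 0.60 (SE 0.16, adjusted p = 0.0205), and 0.45 (adjusted p = 0.00665) without KO replicate 1. It missed the threshold without WT replicate 1, 2 or 3 (adjusted p = 0.0614, 0.0731 and 0.0835). Tm7sf2 (ENSMUSG00000024799, chromosome 19), a sterol reductase, had 76, 135 and 143 counts in KO and 196, 244 and 165 counts in WT, or 0.648, 0.909 and 0.883 RPKM (counts per kilobase of exon per 1000000) in KO and 1.40, 1.74 and 1.27 RPKM in WT. Every KO value was below every WT value in RPKM, at a low level. The KO over WT difference was -0.85 log2 (SE 0.20, adjusted p = 0.0336), and the call was lost without KO replicate 2 (adjusted p = 0.0552), KO replicate 3 (0.0724), WT replicate 1 (0.0876), WT replicate 2 (0.147) or WT replicate 3 (0.059). Tm7sf2 shares 12.08% of its exon bases with Vps51 on the same strand.

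The other 8 genes of this stretch were not called. In 6 of these 8 KO replicate 1 was the highest of all 6 libraries, against 31.6% of all tested genes. Msmo1, the oxidase that begins removal of the ring methyl groups, had 206 CPM in KO replicate 1, 63.8 and 79.0 CPM in KO replicates 2 and 3, and 67.0, 60.2 and 51.7 CPM in WT. The estimate of KO over WT was 0.96 log2 (SE 0.53, adjusted p = 0.121) with all libraries, 0.26 without KO replicate 1, and 1.26 without KO replicate 2, where it was called (adjusted p = 0.0402). Fdft1, squalene synthase, had 90.5 CPM in KO replicate 1, 43.1 and 53.6 CPM in the other KO libraries and 43.0 to 53.7 CPM in WT. Cyp51, the sterol demethylase, Sc5d, a sterol desaturase, and Dhcr7, which makes cholesterol in the last step of one branch, were of the same form. Cyp51 had 127 CPM in KO replicate 1, 72.6 and 75.4 CPM in the other KO libraries and 65.6 to 87.4 CPM in WT. Sc5d had 58.6 CPM in KO replicate 1, 32.4 and 34.8 CPM in the other KO libraries and 34.2 to 35.8 CPM in WT, and Dhcr7 had 27.8, 18.5 and 16.8 CPM in KO and 15.6 to 18.1 CPM in WT. Without KO replicate 1 the log2 fold changes of Fdft1, Cyp51, Sc5d and Dhcr7 were -0.01, -0.01, -0.06 and 0.03.

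Lss, lanosterol synthase, was also highest in KO replicate 1, at 60.9 CPM, but had 35.4 and 36.4 CPM in KO replicates 2 and 3, below the 49.4 to 56.0 CPM of WT. It was not called with all libraries (log2 fold change -0.25, adjusted p = 0.416) and was called lower without KO replicate 1 (-0.55, adjusted p = 0.0022). Nsdhl, a dehydrogenase of the ring demethylation steps, and Ebp, a sterol isomerase, did not follow this form: Nsdhl had 23.3 CPM in KO replicate 1, 0.39 log2 below the mean of the other KO libraries, and 22.3 to 29.5 CPM in WT, and Ebp had 40.0 to 42.2 CPM in KO and 33.5 to 45.3 CPM in WT. Fdft1 shares 18.31% of its exon bases with Ctsb, Cyp51 shares 3.76% with Akap9, Lss 3.53% with 4930483K19Rik, Scap 13.23% with 5830462I19Rik and Npc1 4.52% with Rmc1, all on the opposite strand. No source used here gives the strand setting of the counting, so reads over such shared bases cannot be told apart.

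**Figure D2:**
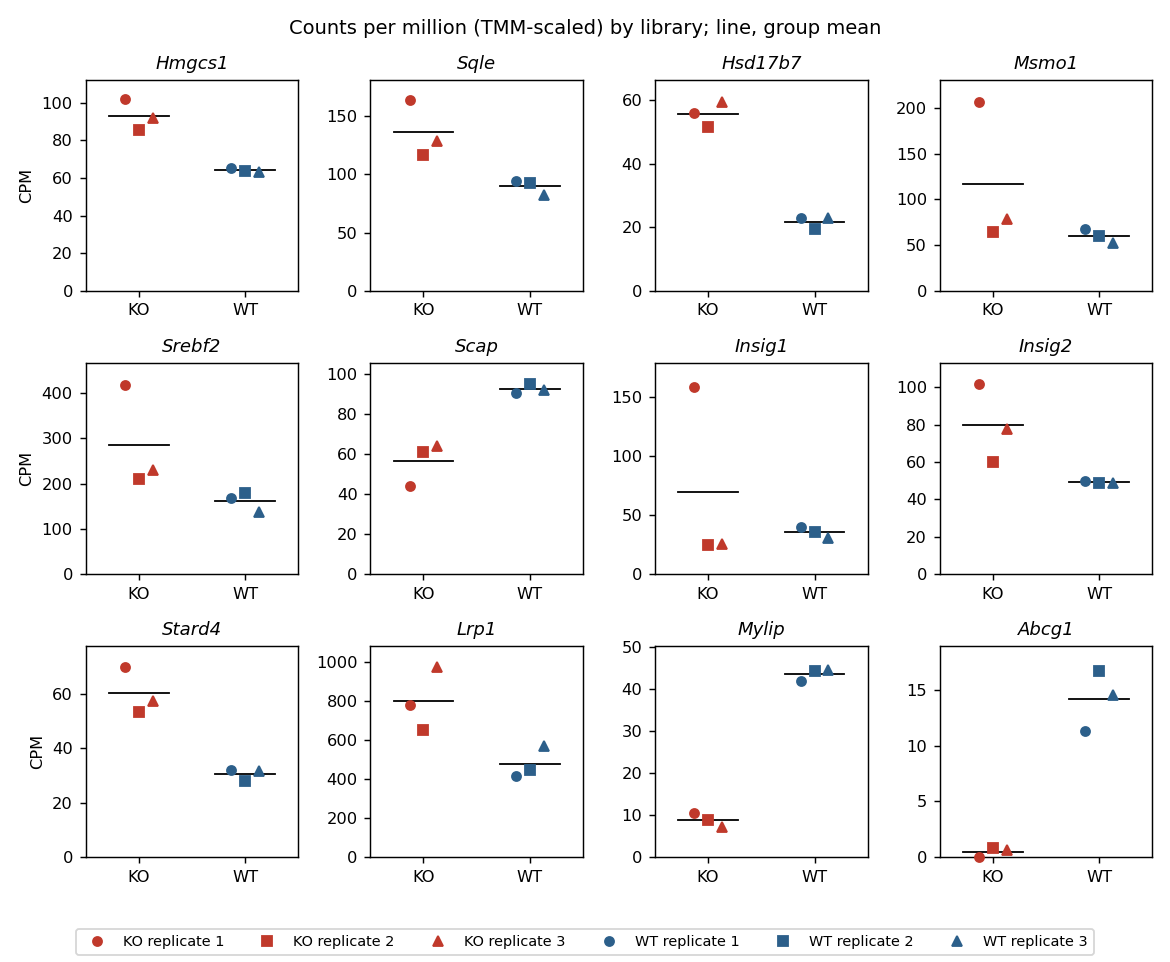
Each panel shows 1 gene, with its CPM from 0 on the y axis, KO libraries in red at the left, WT libraries in blue at the right, and a line at each group mean. The genotypes are apart in all libraries for Hmgcs1, Sqle, Hsd17b7, Srebf2, Scap, Insig2, Stard4, Lrp1, Mylip and Abcg1, while Insig1 had 159 CPM in KO replicate 1 and 24.2 and 25.8 CPM in the other KO libraries.

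Among the 4 genes of SREBP2 control, Insig2 rose and Scap fell, and Srebf2 and Insig1 were not called. Srebf2 (ENSMUSG00000022463, chromosome 15), which encodes SREBP2, had 418, 210 and 230 CPM in KO and 168, 180 and 137 CPM in WT. All KO values were above all WT values, and KO replicate 1 was far above the other KO libraries. On the log2 scale KO minus WT was 0.83 (SE 0.33, adjusted p = 0.0538), so it was not called. It was called higher without KO replicate 1 (0.45 log2, adjusted p = 0.0213), without KO replicate 2 (1.01 log2, adjusted p = 0.029), with DESeq2 (adjusted p = 0.0154) and with no filter on low counts (adjusted p = 0.0187). Scap (ENSMUSG00000032485, chromosome 9), the escort of SREBPs, had 44.2, 60.8 and 63.9 CPM in KO and 90.3, 95.1 and 91.9 CPM in WT. The KO values were all lower, with KO replicate 1 the lowest. The KO over WT difference was -0.71 log2 (SE 0.17, adjusted p = 0.0116), or -0.57 (adjusted p = 0.00102) without KO replicate 1, and it missed the threshold without WT replicate 2 (adjusted p = 0.0545).

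The INSIG genes, whose proteins retain SCAP and SREBPs in the endoplasmic reticulum, had different patterns over the libraries, and the difference between them was not tested. Insig1 (ENSMUSG00000045294, chromosome 5), itself a well-known target of SREBPs, had 159 CPM in KO replicate 1, 24.2 and 25.8 CPM in KO replicates 2 and 3, and 40.0, 35.7 and 30.8 CPM in WT. KO replicate 1 was above all WT libraries and KO replicates 2 and 3 were below all of them. The estimate of KO over WT was 0.97 log2 (SE 0.90, adjusted p = 0.326) with all libraries and -0.51 (adjusted p = 0.0134) without KO replicate 1, where the gene was called lower. With limma-voom and all libraries the estimate was 0.34 log2. Insig2 (ENSMUSG00000003721, chromosome 1) had 102, 60.0 and 77.8 CPM in KO and 49.9, 48.9 and 48.8 CPM in WT. Every KO library was above the WT libraries, which were nearly equal. On the log2 scale KO minus WT was 0.70 (SE 0.22, adjusted p = 0.0283), or 0.49 (adjusted p = 0.0111) without KO replicate 1. The call was lost without KO replicate 3 (adjusted p = 0.058), without WT replicate 1, 2 or 3 (0.091, 0.101 and 0.0946) and with library totals (0.0575).

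KO replicate 1 was the highest of the 6 libraries in 19 of 31 members (61.3%) and the lowest in 4 (12.9%), against 31.6% and 32.5% of all tested genes. Its log2 level exceeded the mean of KO replicates 2 and 3 by a median of 0.41 in the members and by 0.66 in the 11 genes from squalene to cholesterol, against 0.14 in the tested genes of the wider list and -0.00 in all tested genes. It was at least 1 log2 above that mean in 2 members (6.45%), against 6.18% of all tested genes. The step was 2.67 log2 for Insig1, 1.54 for Msmo1, 0.93 for Srebf2, 0.91 for Fdft1 and 0.85 for Mvd, and it was 0.02 for Hsd17b7 and -0.03 for Lrp1. The step was downward in other members, at -2.94 log2 for Abcg1, the member with the widest step, -0.49 for Scap, -0.46 for Tm7sf2 and -0.44 for Acat2. KO replicates 2 and 3, taken against WT, had a median difference of 0.03 log2 in the members and 0.00 in all tested genes. KO replicate 1 also had the fewest Actb counts, 276, and the highest adipocyte marker sum, at 110 CPM, of which Fabp4 gave 109 CPM. Another adipocyte marker, Cidec, had 0 counts in that library and 45 in KO replicate 3. Its fibroblast and epithelial marker sums, 4172 and 50.6 CPM, were the highest of the 6 libraries too, the latter near the 49.4 CPM of KO replicate 3. Single fibroblast markers differed. Col3a1 and Vim were highest in KO replicate 1, but Col1a1 and Dcn were lower there than in the other KO libraries. Pdgfrb was lowest there of all 6 libraries. Its macrophage marker sum was 15.8 CPM, most of it Cd68, against 3.38 and 3.29 CPM in KO replicates 2 and 3. The part of any of these in its sterol gene levels was not tested.

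**Figure D3:**
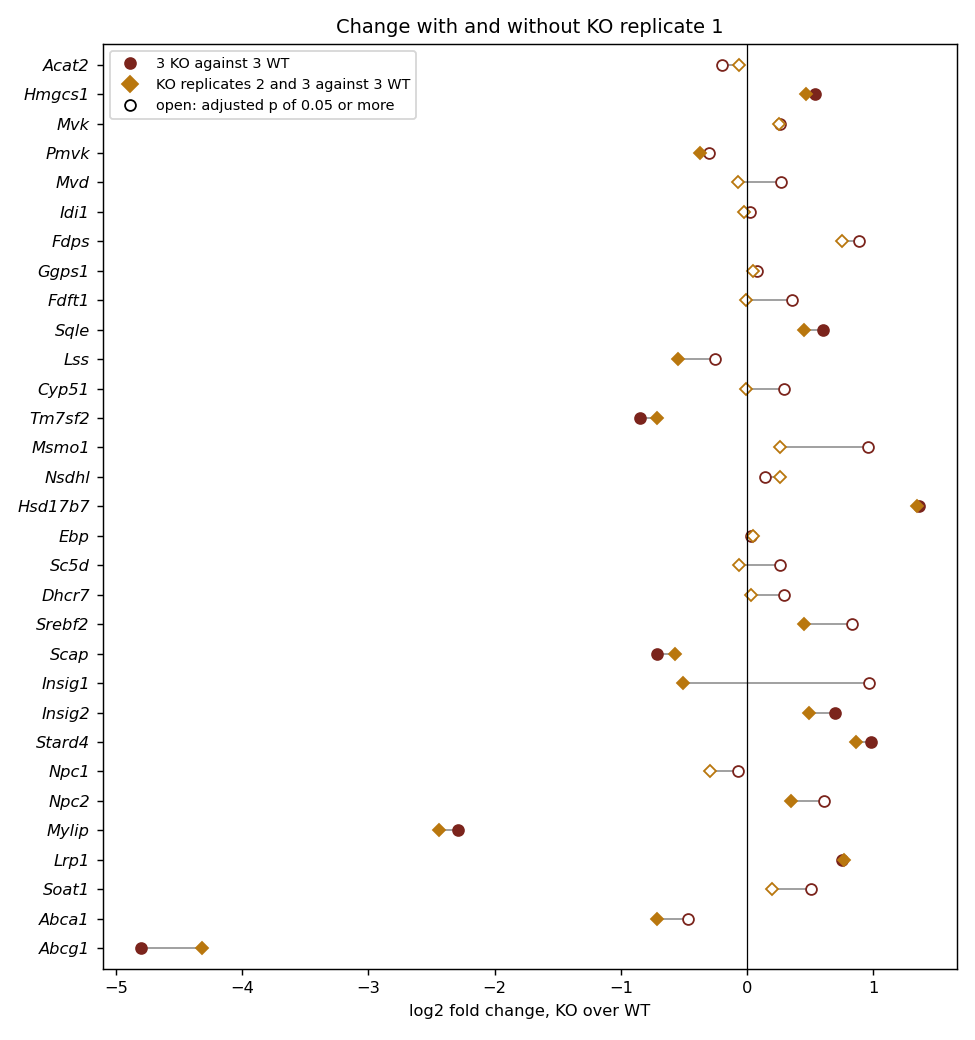
For each member the circle is the log2 fold change of KO over WT with all 6 libraries and the diamond is that without KO replicate 1, with filled symbols at an adjusted p below 0.05. Insig1 stands at 0.97 with all libraries and -0.51 without that one, and Msmo1 at 0.96 and 0.26, while Hsd17b7 and Lrp1 kept their place.

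Of the genes for sterol transport inside the cell 1 of 3 rose and 0 fell, against 13.8% and 14.5% of all tested genes. Stard4 (ENSMUSG00000024378, chromosome 18), whose soluble protein carries cholesterol between membranes and whose gene is a target of SREBP2, had 69.7, 53.4 and 57.4 CPM in KO and 31.9, 28.1 and 31.6 CPM in WT. All KO values were well above all WT values. The KO over WT difference was 0.98 log2 (SE 0.13, adjusted p = 0.00219), 1.97-fold higher in KO, and it was called in all 14 alternatives at 0.77 to 1.06. NPC1 and NPC2 hand cholesterol out of the lysosome together. Npc2 (ENSMUSG00000021242, chromosome 12), for the soluble partner, had 756, 472 and 480 CPM in KO and 404, 346 and 369 CPM in WT. The groups did not overlap, but the log2 fold change of 0.61 (SE 0.23) missed the threshold (adjusted p = 0.0577). It was called without KO replicate 1 (0.35 log2, adjusted p = 0.022) or KO replicate 2 (0.73 log2, adjusted p = 0.0434), with DESeq2 (adjusted p = 0.0212) and with no filter (adjusted p = 0.0341). Npc1 (ENSMUSG00000024413, chromosome 18), for the membrane partner, had 40.0, 24.9 and 28.9 CPM in KO and 31.7, 31.3 and 35.6 CPM in WT, with overlapping groups (log2 fold change -0.07, SE 0.21, adjusted p = 0.796). The difference between the changes of Npc1 and Npc2 was not tested.

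Of the 2 genes listed under uptake, the receptor gene Lrp1 rose, and Mylip, whose ligase marks lipoprotein receptors for degradation, fell. Among all tested genes 13.8% rose and 14.5% fell. Lrp1 (ENSMUSG00000040249, chromosome 10), a large endocytic receptor for lipoprotein remnants and many other ligands, had 778, 653 and 972 CPM in KO and 416, 445 and 570 CPM in WT. Every KO library was above every WT library. It differed by 0.75 log2 between genotypes (SE 0.22, adjusted p = 0.0244), 1.68-fold higher in KO. The call was lost without KO replicate 3 (adjusted p = 0.072), WT replicate 1 (0.101) or WT replicate 2 (0.108) and with library totals (0.54 log2, adjusted p = 0.0741). Mylip (ENSMUSG00000038175, chromosome 13), the LXR-induced ligase whose promoter is shown above, had 10.6, 8.90 and 7.13 CPM in KO and 41.9, 44.1 and 44.5 CPM in WT. The groups were far apart and tight. On the log2 scale KO minus WT was -2.29 (SE 0.17, adjusted p = 0.00018), 4.90-fold lower in KO, and it was called in all 14 alternatives, at -2.50 to -2.15.

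Soat1 (ENSMUSG00000026600, chromosome 1), which esterifies cholesterol for storage, had 3846, 2564 and 3383 counts in KO and 2087, 2222 and 2503 counts in WT, or 104 ± 35.8 CPM in KO and 73.3 ± 9.93 CPM in WT (SD, n = 3 each). The groups overlapped in CPM, and the log2 fold change was 0.51 (SE 0.30, adjusted p = 0.15), or 0.20 without KO replicate 1. Of the efflux genes, Abcg1 (ENSMUSG00000024030, chromosome 17), which passes cholesterol to high-density lipoprotein, had 1, 27 and 23 counts in KO and 361, 532 and 433 counts in WT, or 0.0376, 0.801 and 0.626 CPM against 11.3, 16.7 and 14.6 CPM. The KO libraries were near the limit of detection, and KO replicate 1 was under the 3 counts that a count of 0 allows, a limit that covers counting error only. The KO over WT difference was -4.80 log2 (SE 1.00, adjusted p = 0.00147), 27.9-fold lower in KO, -4.32 without KO replicate 1 and -5.42 with limma-voom, and every alternative called it. Abca1 (ENSMUSG00000015243, chromosome 4), which passes cholesterol to lipid-poor apolipoprotein and is, like Abcg1, a target of the LXRs, had 79.4, 48.8 and 54.8 CPM in KO and 67.4, 78.4 and 108 CPM in WT. Its groups overlapped through KO replicate 1, with a log2 fold change of -0.47 (SE 0.29, adjusted p = 0.17). Without that library it was called lower (-0.71, adjusted p = 0.018).

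On a scale that divides by exon length, RPKM, the members spanned a wide range. The length was that of all annotated exons of a gene, merged, so the ranks between genes are approximate. Npc2 was the highest, at 105 ± 29.7 in KO and 68.6 ± 5.35 in WT (SD, n = 3 each), followed in KO by Lrp1 at 45.2 ± 9.08 and Srebf2 at 39.8 ± 16.0, and in WT by Acat2 at 34.9 ± 2.65 and Lrp1 at 26.9 ± 4.63. In KO the levels of Lrp1 and Srebf2 lay within their spread of each other, and in WT the lowest Acat2 value equalled the highest Lrp1 value, at 32.2. The most abundant enzyme genes in KO were Acat2 at 30.4 ± 5.12, Mvd at 39.8, 20.6 and 23.6 in the 3 libraries, and Sqle at 24.7 ± 4.40, which did not differ beyond their spread. The level of Insig1 was 51.5 in KO replicate 1, 7.83 and 8.33 in KO replicates 2 and 3, and 11.5 ± 1.49 in WT, and that of Insig2 was 29.4, 17.3 and 22.4 in KO and 14.2 ± 0.173 in WT. Insig1 thus stood above Insig2 in KO replicate 1 and below it in KO replicates 2 and 3. Hsd17b7 stood at 10.9 ± 0.785 in KO and 4.26 ± 0.370 in WT. At the low end were Abcg1 (0.0669 ± 0.0548 in KO, 1.95 ± 0.371 in WT), Tm7sf2 (0.814 ± 0.144 in KO, 1.47 ± 0.246 in WT) and Fdps (0.298 ± 0.0587 in KO, 0.160 ± 0.0348 in WT). The level of Fdps rests on its uncertain counts.

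**Figure D4:**
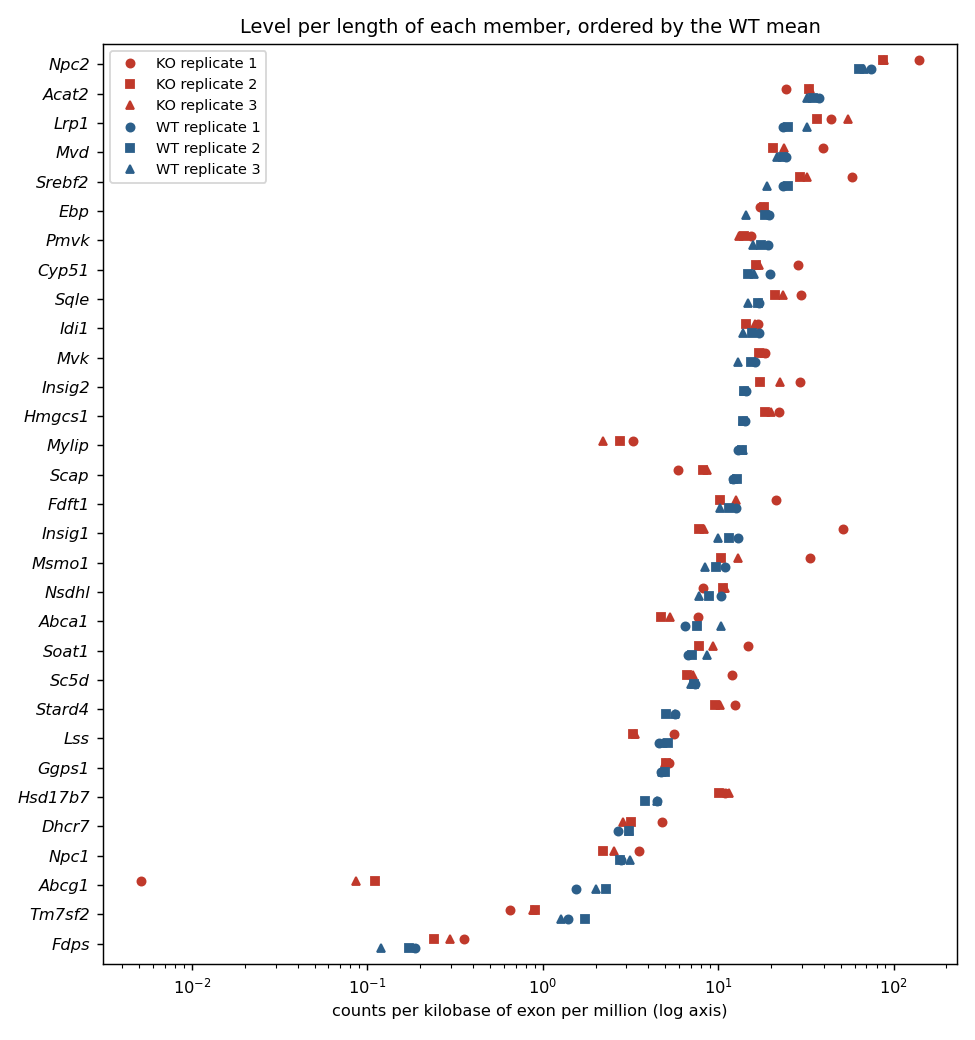
Each row is a member, ordered by its WT mean, and each point a library, with KO in red above WT in blue: the log-scaled x axis gives RPKM. Npc2 is the highest in both genotypes, and Abcg1 has its KO libraries at 0.00515, 0.110 and 0.0857 against 1.95 for the WT mean.

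A wider list of 47 genes for SREBP processing, isoprenoid enzymes, receptors, lipid transfer and the LXRs was read beside the members. Of these 46 were in the files and 44 were tested, of which 3 rose and 4 fell (6.82% and 9.09%, against 13.8% and 14.5% of all tested genes), with a median log2 fold change of 0.02. Without KO replicate 1 the list held 8 higher and 7 lower genes, against 19.9% and 22.4% of all genes tested in that fit, and without WT replicate 1, 2 or 3 it held 1 higher gene, against 6.51% to 8.43% of all tested genes. Nr1h3, which encodes LXR alpha, had 1, 16 and 13 counts in KO and 136, 147 and 92 counts in WT, or 0.0376, 0.474 and 0.354 CPM against 4.27, 4.62 and 3.11 CPM. All KO values were below all WT values, near the limit of detection. It differed by -3.72 log2 between genotypes (SE 0.77, adjusted p = 0.00322), and -3.27 without KO replicate 1. Nr1h2, for LXR beta, was the more abundant LXR gene in WT, at 12.6 ± 1.12 RPKM against 1.59 ± 0.315 RPKM for Nr1h3 (SD, n = 3). Nr1h2 was not called, with 61.9, 43.0 and 49.3 CPM in KO and 46.1, 42.0 and 38.6 CPM in WT (log2 fold change 0.28, SE 0.17, adjusted p = 0.222). Soat2, a second cholesterol esterification enzyme, had 0.338, 1.22 and 1.09 CPM in KO and 8.33, 12.9 and 6.28 CPM in WT (log2 fold change -3.35, SE 0.61, adjusted p = 0.00239). Cyp27a1, a sterol hydroxylase that makes an oxysterol ligand of LXRs, had 1.99, 1.22 and 1.14 CPM in KO and 4.65, 5.97 and 6.21 CPM in WT (log2 fold change -1.96, SE 0.28, adjusted p = 0.00308). Nr1h3, Soat2, Cyp27a1 and Lipa were called in all 14 alternatives.

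Lipa, the lysosomal acid lipase that frees cholesterol from lipoprotein esters, rose by 0.96 log2 (SE 0.11, adjusted p = 0.00163), with 321, 249 and 276 CPM in KO and 149, 139 and 147 CPM in WT. Vldlr, a lipoprotein receptor and a target of the MYLIP ligase, had 116, 89.3 and 98.5 CPM in KO and 75.5, 78.0 and 67.8 CPM in WT (log2 fold change 0.46, adjusted p = 0.0348). Mbtps1, the protease that makes the first cut in SREBPs, had 374, 324 and 345 CPM in KO and 272, 253 and 270 CPM in WT (log2 fold change 0.39, adjusted p = 0.0359). Their groups did not overlap, but their calls were fragile. Vldlr lost its call without KO replicate 3 (adjusted p = 0.0769) or WT replicate 1, 2 or 3 (0.098, 0.0953 and 0.121), with library totals (0.126) and with no filter (0.0531). Mbtps1 lost it without KO replicate 2 or 3 (adjusted p = 0.0516 and 0.0956) or WT replicate 1, 2 or 3 (0.096, 0.166 and 0.0889), with upper-quartile scaling (0.0521), no filter (0.078) and library totals (0.21). Gramd1c, for a sterol transfer protein, fell by 1.05 log2 at 1.12 to 1.46 CPM in KO and 2.33 to 3.33 CPM in WT (adjusted p = 0.026). It lost its call without KO replicate 2 or 3 (adjusted p = 0.0598 and 0.0943) or WT replicate 1 or 2 (0.0678 and 0.12). Srebf1, the sister gene of Srebf2 and an LXR target, had 77.5, 70.4 and 79.0 CPM in KO and 86.0, 90.2 and 86.3 CPM in WT (log2 fold change -0.21, SE 0.06, adjusted p = 0.157), with no overlap between groups.

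**Figure D5:**
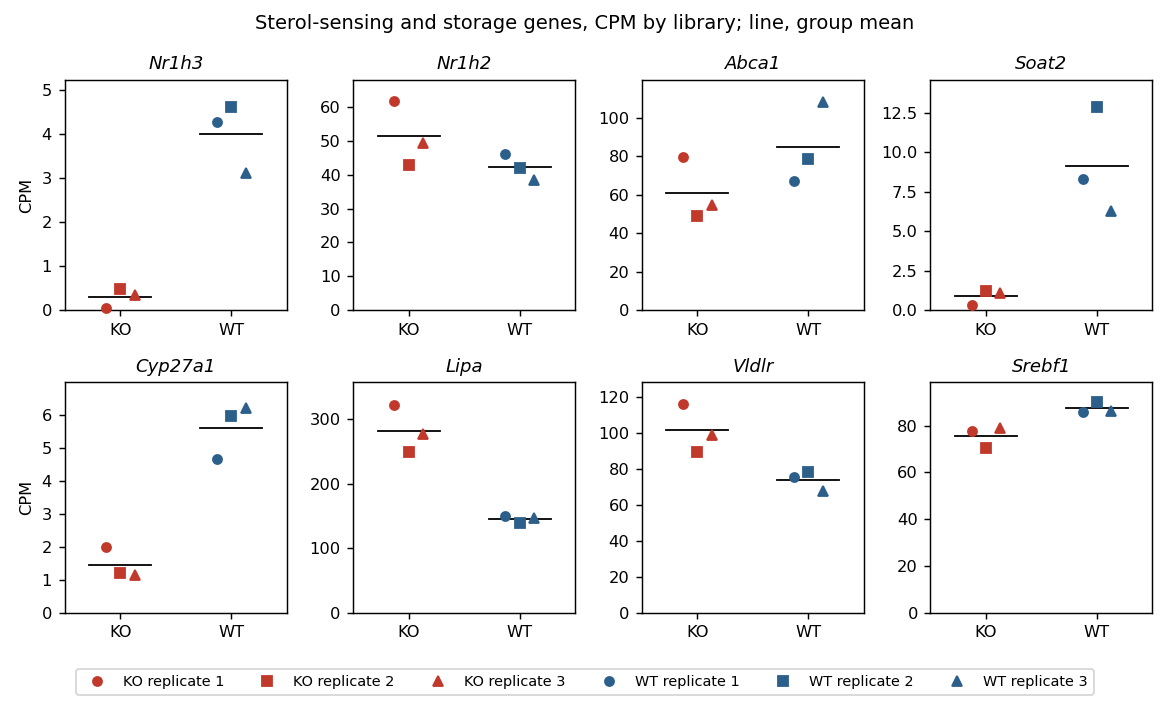
Each panel shows 1 gene, with its CPM from 0 on the y axis, KO libraries in red at the left, WT libraries in blue at the right, and a line at each group mean. Nr1h3, Soat2 and Cyp27a1 are lower and Lipa and Vldlr higher in every KO library than in any WT library, while Nr1h2 and Abca1 overlap between the genotypes.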

How the data were processed

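RNA sequencing of 3 KO and 3 WT MEF libraries was analysed. As deposited, each library's file gives whole, unnormalised read counts for Ensembl genes, and no row names unassigned reads. The kit, per the labels' protocols, was Illumina's TruSeq RNA v2. TopHat2 2.1.0, HTSeq, DESeq2 and the build GRCm38.p4 are named in the submitters' processing notes. The sources used here give no annotation release, strand setting or read filter. Of 46603 identifiers 46091 matched GENCODE M21 (GRCm38), which gave symbols, positions and exon lengths. An exon length covers all annotated exons of a gene, merged.

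Genes were kept with filterByExpr (15009 genes), scaled with TMM and tested with edgeR 4.0.16 in R 4.3.3 by the quasi-likelihood F test, two-sided, with genotype as the only term. A gene was called, or said to rise or fall, where the p, adjusted by Benjamini and Hochberg's method across the 15009 genes, was below 0.05. Log2 fold changes are KO over WT from the edgeR fit. Each SE refers to the gap between the mean log2 CPM of the groups, n = 3 each, and is not the SE of the edgeR value. The gap and the edgeR value can differ where the libraries of a group spread widely, as for Insig1, Msmo1 and Abcg1. The script was checked on simulated counts. Alternatives were other scalings (RLE, upper quartile, library totals), DESeq2 1.42.0, limma-voom (limma 3.58.1), other filters, the replicate number as a block, and each library left out in turn.

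The members and gene lists were chosen with earlier results of these data known. Library values are given for called members and for 12 set members (Srebf2, Scap, Insig1, Insig2, Abca1, Abcg1, Hmgcs1, Sqle, Npc1, Npc2, Soat1 and Lrp1), and the other members' values are given in short. In the wider list, called genes, Srebf1, Nr1h2 and Nr1h3 are named. Alternatives for the named genes of the wider list were added after seeing the data.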

Additional observations from a re-analysis of the deposited data

How the results depend on the processing

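Of 10 called members 4 (Hsd17b7, Stard4, Mylip and Abcg1) were called under all 14 alternatives, and all 10 kept their sign. Of the 21 members not called, 7 were called under at least 1 alternative and 10 changed sign under at least 1. No such counts are given for all tested genes, so the members' stability cannot be set against that of other genes. With library totals the median log2 fold change of all tested genes was -0.19, which moves every gene's change down. There the log2 fold changes of Idi1, Ggps1, Nsdhl and Ebp were -0.18, -0.12, -0.06 and -0.17, and with upper-quartile scaling those of Idi1 and Ebp were -0.04 and -0.03, none called. All tested genes then counted 1351 higher and 3347 lower (9% and 22.3%) with library totals, against 2074 and 2181. The 3 higher genes of the wider list became 7 with DESeq2, where 17.6% of all tested genes were higher, against 13.8% in the main fit. The list held 1 higher gene with library totals (9% of all tested genes), no filter (8.06%) or the replicate block (9.63%). The cause was not tested.

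Leaving out each library in turn, members numbered 2 to 9 higher and 2 to 8 lower, the wider list 1 to 8 higher and 3 to 7 lower, and all tested genes 1003 to 3075 higher and 1295 to 3462 lower. The most calls over all tested genes came without KO replicate 1. In the same fits the log2 fold change ran from -0.07 to 0.46 for Mvd, -0.01 to 0.57 for Fdft1, -0.01 to 0.44 for Cyp51, -0.06 to 0.42 for Sc5d and -0.51 to 1.38 for Insig1, lowest without KO replicate 1 and highest without KO replicate 2. It ran from -0.29 without KO replicate 1 to 0.07 without KO replicate 2 for Npc1, from -0.06 to 0.09 for Idi1 and from -0.09 to 0.11 for Ebp, the last pair lowest without WT replicate 3. Idi1 was also below 0 without KO replicate 1 (-0.02). Replicate numbers do not pair the cultures in the labels, and equally numbered libraries deviated from their groups with a correlation across genes of -0.101, 0.046 and -0.148, with 2 of 6 libraries correlating best with their own number. With the replicate block, members numbered 6 higher and 3 lower, with Tm7sf2 not called (adjusted p = 0.0763), and in the wider list Vldlr (0.0782), Mbtps1 (0.0916) and Gramd1c (0.0687) were not called, while all tested genes numbered 1446 higher and 1599 lower. The filter at 1 CPM in 3 libraries left out Fdps and so gave it no value. Counts of 15 to 46 for Fdps and of 1 to 27 for Abcg1 in KO set the precision of those values.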
